A study of Homo sapiens with 13 samples.

Results

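Calretinin, encoded by *CALB2*, and 8 other genes of neuronal calcium binding proteins were followed in 2 small cell lung cancer (SCLC) cell lines, H82 and H146, treated with FHD-286. The 9 genes were taken by symbol from the 56831 genes measured: the buffers *CALB1*, *CALB2*, *SCGN* and *PVALB*, and the sensors *HPCA*, *HPCAL1*, *NCALD*, *VSNL1* and *NCS1*. *CALB2* was chosen by its large rise in treated H146 cells, so its H146 values, and the difference between the lines that uses them, are given as a description with no test.

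SCLC is a high-grade cancer whose cells usually carry neuroendocrine features, and FHD-286 is an inhibitor of SMARCA2 and SMARCA4, the ATPases of the SWI/SNF chromatin remodeling complexes. The study asked how SMARCA4 activity shapes the neuroendocrine state of such cells. Bulk RNA-seq of total RNA covered 13 libraries from lines given as wild type, all grown in RPMI1640 with serum: 3 untreated and 3 treated libraries of H82, and 3 untreated and 4 treated libraries of H146. Treated cells received 100 nM FHD-286 for 14 days, with the drug renewed every 48 h, and untreated cells received none. The labels name no vehicle and do not say whether replicates were separate cultures, so p-values measure the spread between these samples, which may be technical. Each group is 1 cell line under 1 condition, and the line and its library batch cannot be told apart, so levels in H82 and H146 are set side by side without a test.

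Calcium binding proteins with EF-hand motifs fall into buffers, which take up calcium ions and so limit how far and how fast a calcium signal spreads, and sensors, which change shape on binding calcium and then act on other proteins. Calretinin, calbindin (*CALB1*) and secretagogin (*SCGN*) are relatives with several EF hands, and parvalbumin (*PVALB*) is a small, slow buffer. In brain they mark separate classes of interneurons, secretagogin is also abundant in neuroendocrine and islet cells, and calretinin is used in pathology as a marker of mesothelium. Hippocalcin (*HPCA*), hippocalcin-like 1 (*HPCAL1*), neurocalcin delta (*NCALD*), visinin-like 1 (*VSNL1*) and neuronal calcium sensor 1 (*NCS1*) belong to the neuronal calcium sensor family, whose members bind membranes through a myristoyl group, several of them only when calcium is bound.

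Values are transcript abundances scaled to library and transcript length (TPM), which the authors deposited for 56831 genes. TPM keeps no read depth, so the counting error behind a value is unknown, and a gene listed at 0 may have been missed. In H82, between 21227 and 21772 genes reached 1 TPM in the untreated libraries and between 15554 and 16633 in the treated ones. In H146 these numbers were between 17476 and 17965 untreated and between 18778 and 19309 treated. The number of genes seen therefore moved with treatment in both lines, downwards in H82 and upwards in H146, and its part in the results was not tested. Fold changes are differences of mean log2(TPM + 1), treated minus untreated, with their standard error (SE), and adjusted p-values come from limma over all genes kept by a filter, a value of 1 TPM or more in 3 or more libraries of that line. The added 1 TPM makes these fold changes understate the change of low genes. In bulk RNA, fewer cells of a kind and less RNA per cell cannot be told apart.

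Facts of the libraries bear on several values below. The median of all genes tested moved by -0.56 (log2) in treated H82 and by 0.25 in treated H146, so a change in TPM is best read against these shifts. Of all calls in H82, 77.7% were lower, but 57.6% when libraries were rescaled by the median of ratios, and in H146 32.3% were lower, but 54.1% after the same rescaling. The treated H82 library 2 stood apart: 46 genes with at least 50 TPM in every untreated H146 library and at most 0.1 TPM in every untreated H82 library summed to 299 TPM in it. The same genes summed to 47.4 and 21.8 TPM in treated H82 libraries 1 and 3, to between 0.570 and 0.709 TPM in untreated H82, and to between 4335 and 8987 TPM in H146. Mitochondrial genes gave between 22.1% and 24.1% of TPM in untreated H82 and between 12.3% and 14.9% in treated H82, ranges that did not overlap. In H146 they gave between 7.56% and 8.86% untreated and between 3.82% and 11.4% treated. The part of this shift in the results was not tested. The neuroendocrine markers *SYP*, *CHGA*, *INSM1*, *NCAM1* and *NEUROD1* summed to between 610 and 660 TPM in untreated H82 and 178 to 577 TPM in treated H82. In H146 they summed to between 1377 and 1679 TPM untreated and 983 to 1244 TPM treated. They did not move together. In H82 the means of *SYP* (202 and 46.8 TPM), *CHGA* (143 and 32.6) and *NEUROD1* (230 and 83.6) fell. There the mean of *INSM1* rose from 14.4 TPM (12.5 to 15.8) to 121 TPM, with treated libraries spread widely, from 32.1 to 296 TPM. The means of *NCAM1* in H82 were 52.9 and 64.2 TPM. In H146 most of the sum was *INSM1*, at 1230 and 870 TPM. The others there were *SYP* (85.5 and 71.6), *CHGA* (118 and 109), *NCAM1* (51.0 and 55.8) and *NEUROD1* (0.393 and 0.317).

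Sequences around the starts of 4 of the genes are shown because the results turn on these genes: *SCGN* moved in opposite directions in the lines, *VSNL1* and *NCS1* had the largest tested rises of the set in H146, and *HPCA* fell in H82. Each is 300 bases of RefSeq sequence (GRCh38.p14), from 250 bases before to 50 after an annotated start, on the gene's strand, here the plus strand throughout. Capitals mark matches on either strand to 5 short motifs, and adjoining or overlapping matches run together. The GC box was searched as GGGCGG. The TATA box was searched as TATAAA. The AP-1 type motif was searched as TGANTCA. One E-box was searched as CAGCTG. The other E-box was searched as CAGATG, which none of the windows held.
*SCGN*, chr6:25651965-25652264: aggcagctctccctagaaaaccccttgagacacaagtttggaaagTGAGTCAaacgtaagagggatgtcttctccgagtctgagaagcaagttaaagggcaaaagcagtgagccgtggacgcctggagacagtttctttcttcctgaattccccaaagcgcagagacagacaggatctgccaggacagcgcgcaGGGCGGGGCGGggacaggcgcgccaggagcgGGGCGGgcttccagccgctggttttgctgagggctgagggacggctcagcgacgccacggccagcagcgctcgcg
*VSNL1*, chr2:17539722-17540021: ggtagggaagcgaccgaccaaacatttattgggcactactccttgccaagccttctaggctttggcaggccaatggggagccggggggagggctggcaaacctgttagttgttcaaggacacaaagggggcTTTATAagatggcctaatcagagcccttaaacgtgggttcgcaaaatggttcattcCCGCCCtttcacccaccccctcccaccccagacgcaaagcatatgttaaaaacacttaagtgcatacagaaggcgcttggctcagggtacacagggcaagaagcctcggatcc
*NCS1*, chr9:130172154-130172453: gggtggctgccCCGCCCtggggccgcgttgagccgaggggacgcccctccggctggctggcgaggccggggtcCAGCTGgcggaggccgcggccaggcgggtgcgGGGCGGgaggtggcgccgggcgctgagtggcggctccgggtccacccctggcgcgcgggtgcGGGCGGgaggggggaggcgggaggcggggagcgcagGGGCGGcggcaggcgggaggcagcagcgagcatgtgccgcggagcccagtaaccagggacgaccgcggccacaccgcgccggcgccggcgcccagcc
*HPCA*, chr1:32886241-32886540: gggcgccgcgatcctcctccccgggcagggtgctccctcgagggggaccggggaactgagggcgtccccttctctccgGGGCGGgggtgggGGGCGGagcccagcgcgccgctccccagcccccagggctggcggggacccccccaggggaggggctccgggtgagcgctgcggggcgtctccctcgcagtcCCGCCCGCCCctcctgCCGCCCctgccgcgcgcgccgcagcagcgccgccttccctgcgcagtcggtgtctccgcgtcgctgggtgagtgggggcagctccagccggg

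The 4 windows differed in base composition and in these short words. The *HPCA* and *NCS1* windows were 80.3% and 82.7% G or C, with 35 and 42 CpG, against a median of 58.7% and 14 over the 35116 promoters of the table, while the *SCGN* and *VSNL1* windows held 60.7% and 53.7%. The *SCGN* window held 3 GC boxes and 1 TGANTCA, the *VSNL1* window 1 GC box and 1 TATA box, the *NCS1* window 4 GC boxes and 1 CAGCTG, and the *HPCA* window 5 GC boxes. Of all promoters of the same length, 45.0% held GGGCGG, 11.5% TATAAA, 7.71% TGANTCA, 17.9% CAGCTG and 14.7% CAGATG. A match is a description of letters, not a binding site. *VSNL1* and *NCS1* each have a second annotated start, which is not shown, and 6 of the 9 genes had an entry in the table. The second *NCS1* window was 52.0% G or C with 8 CpG, and the second *VSNL1* window 61.0% with 19 CpG. Neither held any of the 5 motifs, so the contrast holds only for the starts shown.

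*CALB2*, the gene of calretinin, lies on chromosome 16 (hg38, 71358713 to 71390436, plus strand). In untreated H146 it measured 1.02, 0.451 and 1.49 TPM. In treated H146 it measured 119, 70.6, 106 and 127 TPM. All 4 treated libraries lay far above the 3 untreated ones, with treated library 2 the lowest. The means were 0.986 ± 0.519 TPM (SD, n = 3) and 106 ± 24.9 TPM (SD, n = 4), a ratio of 107, and the fitted change was 5.75, the 2nd largest among the 19585 genes tested in H146. These are the values that selected the gene. No other gene's exons overlapped those of *CALB2* in GENCODE 44, and none of its 50-base windows was found in another gene's transcripts.

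Calretinin RNA was also listed in the treated H82 libraries, at a far lower level. *CALB2* was listed at 0 in all 3 untreated H82 libraries and at 0.842, 2.61 and 0.0749 TPM in the treated ones. The groups did not overlap, the treated library 2 was the highest, and only that library passed 1 TPM. The difference of means on the log2 scale was 0.95, and an exact permutation test over libraries gave p = 0.1, the smallest that 3 against 3 allows. Without treated library 2 the difference was 0.49. The genes restricted to untreated H146 described above summed to 47.4, 299 and 21.8 TPM in treated H82 libraries 1, 2 and 3. The *CALB2* values had the same order of size, and the part of such RNA in them was not tested.

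Markers of mesothelial cells and forebrain interneurons, which can carry calretinin, and of fibroblasts were read beside it. The 5 mesothelial markers summed to between 3.55 and 4.21 TPM in untreated H146 and between 7.65 and 23.9 TPM in treated H146. Of these, *LRRN4* averaged 1.69 TPM untreated and 15.2 TPM treated (5.89 to 22.2), *UPK3B* 2.08 and 0.922, *ITLN1* 0.0196 and 0.336, *WT1* 0.00782 and 0.0512, and *MSLN*, mesothelin, 0.0251 and 0.124 TPM. The 10 forebrain interneuron markers summed to between 1592 and 1867 TPM in untreated H146 and between 1714 and 2559 TPM in treated H146. *DLX5* gave the largest part, at 1090 and 1165 TPM. The members did not move together in H146. The means of *NPY* (9.26 and 0.552 TPM) and *LHX6* (6.94 and 3.04) fell. *GAD1* was near level, at 25.2 and 25.97 TPM. *GAD2* (4.68 and 15.3), *SST* (0.151 and 4.3) and *VIP* (0.0956 and 6.01) rose, and *DLX1*, *DLX2* and *DLX6* also had higher treated means. The same list summed to between 22.5 and 23.8 TPM in untreated H82, where *SST*, *VIP* and *NPY* were at 0, and to between 67.1 and 180 TPM in treated H82. The 5 fibroblast markers summed to between 6.68 and 8.59 TPM in untreated H146, 16.6 and 32.0 in treated H146, 0.912 and 1.84 in untreated H82 and 7.05 and 33.9 in treated H82. The part of such cells in these results was not tested.

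*SCGN*, secretagogin, is on chromosome 6 (hg38, 25652201 to 25701783, plus strand) and moved in opposite directions in the 2 lines. Untreated H146 held 196, 179 and 193 TPM. Treated H146 held 3.56, 2.80, 7.02 and 8.98 TPM. Every treated library fell to a small part of the untreated level. The mean dropped from 190 ± 9.23 TPM (SD, n = 3) to 5.59 ± 2.91 TPM (SD, n = 4), 33.9 times lower, with a log2 fold change of -4.96 (SE 0.318, adjusted p = 1.97e-05).

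In H82 the same gene went up from almost nothing. *SCGN* measured 0, 0.350 and 0.414 TPM in untreated H82 and 7.66, 60.1 and 8.35 TPM in treated H82. The groups did not overlap, and treated library 2 lay well above the other treated libraries. The log2 fold change was 3.78 (SE 0.728, adjusted p = 0.00401). The gene reached the filter only through the treated libraries, where it was high, and with no filter the adjusted p was 0.0115. Without treated library 2 the change was 2.86 (adjusted p = 0.000939). All differences between the lines are the change in H146 minus that in H82, and for *SCGN* this was -8.74 on the log2 scale (SE 0.832, adjusted p = 5.48e-06), and -7.82 (adjusted p = 8.02e-07) without that library. In GENCODE 44, 896 of the 1482 exon bases of *SCGN* are shared with an unnamed gene on the same strand. The TPM were counted with GENCODE 28, and whether that gene was in it was not checked. Reads could have been split between them only if it was.

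The other buffers were lower or less changed. *CALB1*, calbindin, on chromosome 8, measured 12.3, 13.2 and 11.5 TPM in untreated H146 and 21.2, 23.0, 20.9 and 22.2 TPM in treated H146. The groups did not overlap, the ratio of means was 1.77, and the log2 fold change was 0.78 (SE 0.12, adjusted p = 0.00126).

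In H82 calbindin had no settled direction. *CALB1* measured 2.28, 3.20 and 3.38 TPM untreated and 0.670, 16.4 and 0.268 TPM treated. Treated library 2 was the highest of the 6 and the other treated libraries the lowest, so the mean rose from 2.96 to 5.80 TPM while the mean log2 value changed by -0.24 (SE 0.93, adjusted p = 0.842). Without treated library 2 the change was -1.43 (adjusted p = 0.00649). Without treated library 1 it was 0.26 and without treated library 3 it was 0.46, neither past the threshold. Rescaling by the median of ratios gave 0.07 and quantile normalization gave 0.58. The change in H146 minus that in H82 was 1.01 (SE 0.959, adjusted p = 0.38), and 2.21 (adjusted p = 2.98e-05) without treated H82 library 2.

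*PVALB*, parvalbumin, on chromosome 22, was listed at 0 in all 6 H82 libraries and all 3 untreated H146 libraries. Treated H146 libraries gave 0.105, 0, 0.409 and 0.191 TPM, and an exact permutation test gave p = 0.143, where 0.0286 is the smallest that 3 against 4 allows.

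**Figure D1:**
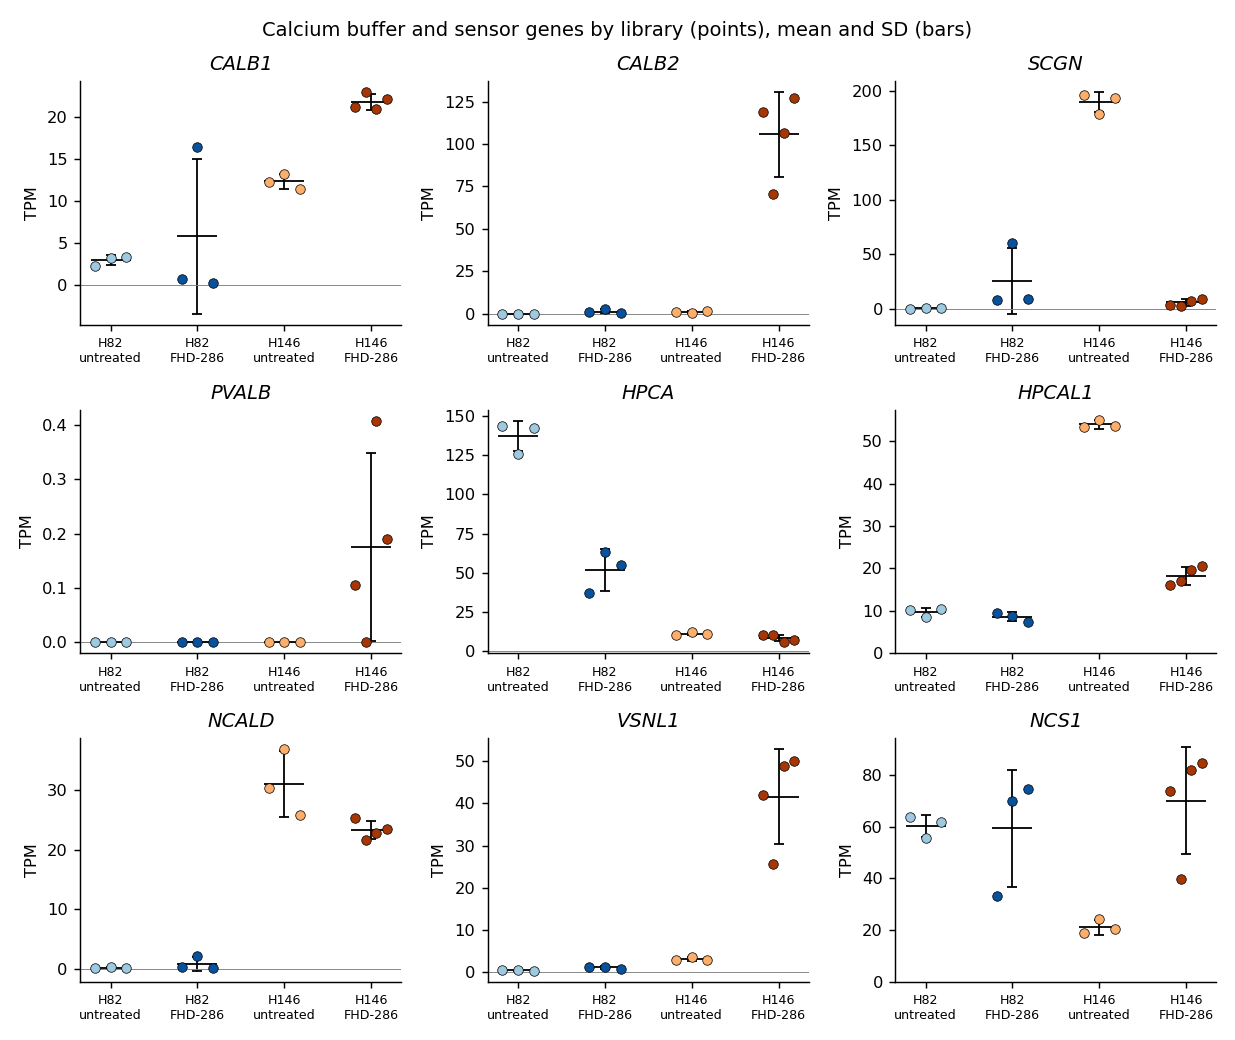
TPM of the 9 calcium binding genes in each of the 13 libraries, one panel per gene with its own linear axis. Points are libraries in replicate order and black bars are the group mean and SD. *CALB2* stands between 70.6 and 127 TPM in treated H146 and at or below 2.61 TPM elsewhere, and *SCGN* is highest in untreated H146.

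Among the sensors, *VSNL1*, visinin-like 1, a membrane-binding sensor of neurons, rose most in H146. It lies on chromosome 2 (hg38, 17539126 to 17657018, plus strand). It measured 2.85, 3.65 and 2.89 TPM in untreated H146 and 41.9, 25.6, 48.9 and 49.9 TPM in treated H146. The groups were far apart, with treated library 2 again the lowest. The means were 3.13 ± 0.454 TPM (SD, n = 3) and 41.6 ± 11.3 TPM (SD, n = 4), 13.3 times higher, and the log2 fold change was 3.33 (SE 0.237, adjusted p = 3.08e-05). In H82 *VSNL1* stayed low, at 0.600, 0.609 and 0.427 TPM untreated and 1.34, 1.38 and 0.865 TPM treated, groups that did not overlap (exact permutation p = 0.1, the smallest possible). The 2 responses differed by 2.83 (SE 0.322, adjusted p = 1.95e-05), and by 1.73 (adjusted p = 0.000499) after quantile normalization. *VSNL1* was below the filter in H82 and entered this test through the H146 libraries. The added 1 TPM makes its H82 change of 0.50 an understatement, since the log2 ratio of means was 1.13.

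*NCS1*, neuronal calcium sensor 1, which acts on exocytosis and on phosphatidylinositol kinase, lies on chromosome 9 (hg38, 130172404 to 130237303, plus strand). It measured 18.8, 24.3 and 20.4 TPM in untreated H146 and 73.8, 39.9, 82.02 and 84.5 TPM in treated H146. Every treated library was above every untreated one, and treated library 2 was the lowest of the 4. The ratio of means was 3.31 and the log2 fold change 1.63 (SE 0.257, adjusted p = 0.00141). In H82 *NCS1* was already at 63.6, 55.7 and 61.9 TPM before treatment, and it measured 33.3, 70.1 and 74.6 TPM after it. The treated values lay on both sides of the untreated ones, and the log2 fold change was -0.11 (SE 0.304, adjusted p = 0.78), against 0.38 (adjusted p = 0.282) after rescaling by the median of ratios and 0.26 (adjusted p = 0.0377) without treated library 1. The responses of the lines differed by 1.74 (SE 0.428, adjusted p = 0.00399), but by 0.94 (adjusted p = 0.0547) after that rescaling.

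*HPCA*, hippocalcin, a sensor of hippocampal neurons, was the leading gene of the set in untreated H82. It lies on chromosome 1 (hg38, 32885994 to 32898441, plus strand). It measured 143.8, 126 and 142 TPM untreated and 37.0, 63.4 and 54.8 TPM treated. The groups did not overlap, and the untreated mean was 2.66 times the treated one. The log2 fold change was -1.42 (SE 0.212, adjusted p = 0.00141), or -0.87 relative to the median of all genes. In H146 *HPCA* was low, at 10.6, 12.0 and 11.0 TPM untreated and 10.3, 10.1, 5.71 and 7.39 TPM treated. The groups did not overlap, but the change of -0.41 (SE 0.206), or -0.66 relative to the median of all genes, did not pass the test (adjusted p = 0.132). Rescaling by the median of ratios gave -0.70 (adjusted p = 0.0331). The responses differed by 1.02 (SE 0.302, adjusted p = 0.0118), but by 0.24 (adjusted p = 0.523) after that rescaling. *TMEM54*, which overlaps 247 of the 1964 exon bases of *HPCA* on the other strand, averaged 47.9 and 45.7 TPM in untreated and treated H82 and 33.5 and 55.1 TPM in H146, and whether reads were counted by strand is not given in the sources used here.

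*HPCAL1*, hippocalcin-like 1, a broadly expressed sensor on chromosome 2 (hg38, 10302889 to 10427617, plus strand), fell in H146. It measured 53.4, 55.1 and 53.5 TPM untreated and 16.1, 17.0, 19.7 and 20.5 TPM treated. The groups did not overlap, the untreated mean was 2.95 times the treated one, and the log2 fold change was -1.52 (SE 0.125, adjusted p = 6.78e-05). In H82 it measured 10.1, 8.48 and 10.3 TPM untreated and 9.58, 8.74 and 7.44 TPM treated, overlapping groups with a change of -0.15 (SE 0.177, adjusted p = 0.487). That change turned to 0.29 (adjusted p = 0.223) after rescaling by the median of ratios and to 0.56 (adjusted p = 0.0405) after quantile normalization. The responses differed by -1.36 (SE 0.191, adjusted p = 8.38e-05).

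*NCALD*, neurocalcin delta, on chromosome 8, measured 30.4, 37.0 and 25.9 TPM in untreated H146 and 25.3, 21.7, 22.8 and 23.5 TPM in treated H146. The treated values lay just below the untreated ones without overlap, and the change of -0.39 (SE 0.145) did not pass the test (adjusted p = 0.0534). It passed after rescaling by the median of ratios, at -0.70 (adjusted p = 0.00315), and without untreated library 3, at -0.51 (adjusted p = 0.0315). In H82 *NCALD* measured 0.143, 0.387 and 0.0764 TPM untreated and 0.297, 2.19 and 0.0952 TPM treated, with only treated library 2 above 1 TPM (exact permutation p = 0.6). The responses differed by -0.86 (SE 0.437, adjusted p = 0.108), in a test that *NCALD*, below the filter in H82, entered through the H146 libraries.

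**Figure D2:**
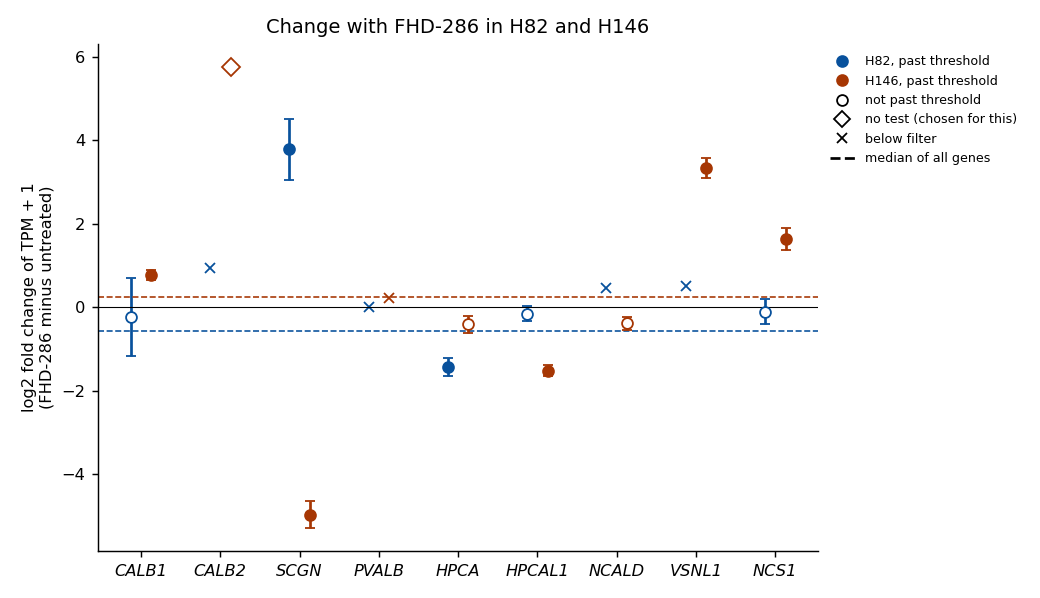
Log2 fold change of TPM + 1 (treated minus untreated) of the 9 genes in H82 (blue) and H146 (orange), with SE as bars and the median of all genes as dashed lines. Filled circles passed adjusted p under 0.05, open circles did not, crosses were below the filter, and the diamond is *CALB2* in H146, which has no test. *SCGN* has filled circles on opposite sides of 0.

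Counted together, 5 of the 9 genes passed the filter in H82, where 1 rose and 1 fell. Of all genes tested in H82, 13.1% were called higher and 45.5% lower. Among the 5, the groups did not overlap for 2, against 67.8% of all genes. In H146, 7 of the 8 genes other than *CALB2* passed the filter, and 3 rose and 2 fell. Of all genes tested in H146, 32.5% were called higher and 15.5% lower, and the groups did not overlap for 7 of the 7, against 52.9% of all genes. The response differed between the lines for 5 of the 7 genes tested, against 59.3% of the 24374 genes tested. With so few genes, some of which passed the filter only through the group where they were high, these counts are a description and nothing about the set is read from them.

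The make-up of the set's RNA changed in both lines. Because TPM is scaled for transcript length, levels can be set side by side between genes. Which transcript lengths were used is not given in the sources used here, and the shares and orders depend on them. The 9 genes summed to 211 ± 14.4 TPM in untreated H82 and 154 ± 67.5 TPM in treated H82 (SD, n = 3 each), and to 323 ± 2.98 TPM (SD, n = 3) and 295 ± 58.3 TPM (SD, n = 4) in H146. In untreated H82, *HPCA* took 65.0% and *NCS1* 28.6% of that sum. In treated H82, *NCS1* took 39.6%, *HPCA* 35.5% and *SCGN* 13.6%, the last between 5.70% and 26.7%. In untreated H146, *SCGN* took 58.6%, *HPCAL1* 16.7% and *NCALD* 9.61%. In treated H146, *CALB2* took 35.6%, *NCS1* 23.3% and *VSNL1* 13.9%, while *SCGN* took 1.83%. The last group's leading share is that of the gene chosen for its rise.

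Within each group the mean TPM set an order, and some neighbours in it were not separated by their libraries. In untreated H82 the order was *HPCA*, *NCS1*, *HPCAL1*, *CALB1*, *VSNL1*, *SCGN* and *NCALD*, with overlapping ranges for *SCGN* and *NCALD*. In treated H82 *NCS1* and *HPCA* overlapped at the top, *SCGN* overlapped *HPCA* and *HPCAL1*, *CALB1* overlapped *HPCAL1* and *VSNL1*, and *VSNL1*, *CALB2* and *NCALD* overlapped at the bottom. In untreated H146 the order was *SCGN*, *HPCAL1*, *NCALD*, *NCS1*, *CALB1*, *HPCA*, *VSNL1* and *CALB2*, and the ranges of *CALB1* and *HPCA* overlapped. In treated H146 the order was *CALB2*, *NCS1*, *VSNL1*, *NCALD*, *CALB1*, *HPCAL1*, *HPCA*, *SCGN* and *PVALB*. There the ranges overlapped between *CALB2* and *NCS1*, *NCS1* and *VSNL1*, *NCALD* and *CALB1*, and *HPCA* and *SCGN*.

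**Figure D3:**
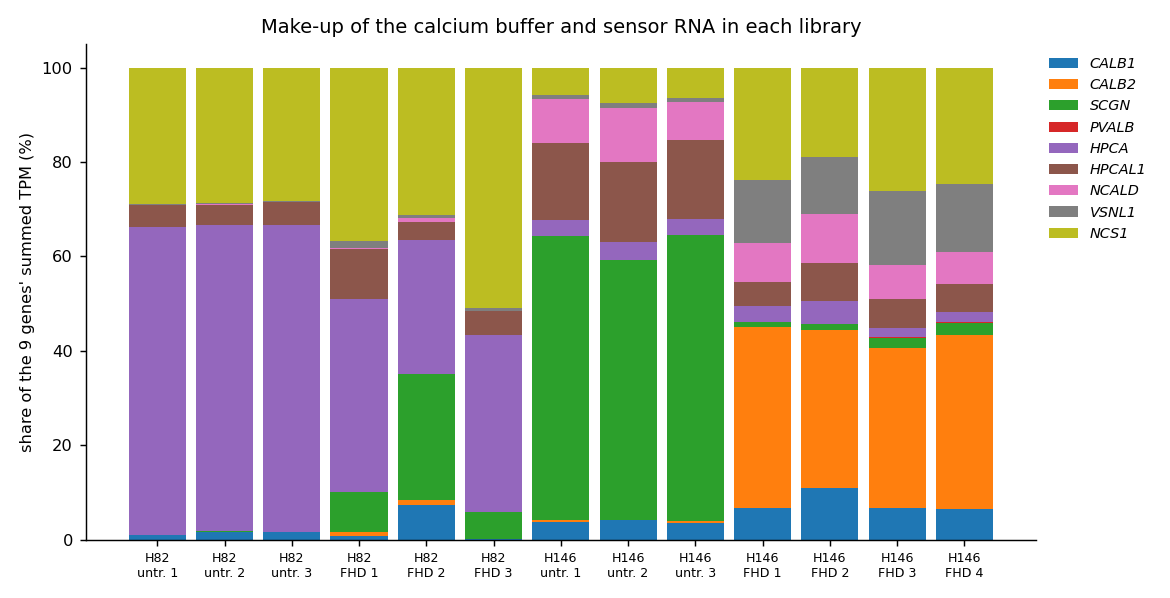
Share of each gene (%) in the summed TPM of the 9 genes, one stacked bar per library, FHD marking FHD-286. *HPCA* and *NCS1* fill most of the untreated H82 bars, *SCGN* most of the untreated H146 bars, and *CALB2* between 33.5% and 38.2% of the treated H146 bars.

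The genes whose pattern was most like that of *CALB2* were sought by Pearson correlation of log2(TPM + 1) over the 13 libraries, among 14624 genes that reached 10 TPM. The 5 with the highest values were *PCDH17* (r = 0.986), *TSPAN12* (0.982), *RP11-455O6.9* (0.982), *EPHA5* (0.981) and *BRINP3* (0.980), and *VSNL1* ranked 12 with r = 0.977. The points share their lines and treatments, so these values restate that each gene was high in treated H146 and lower elsewhere. *PCDH17*, a protocadherin of neuronal adhesion, averaged 0.203 and 0.317 TPM in untreated and treated H82 and 1.27 and 43.6 TPM in H146. *TSPAN12*, a tetraspanin of Norrin signaling, averaged 20.2 and 28.7 TPM in H82 and 27.9 and 245 TPM in H146. *EPHA5*, an ephrin receptor, averaged 0 and 0.235 TPM in H82 and 0.827 and 10.8 TPM in H146. *BRINP3* averaged 0 and 0.132 TPM in H82 and 0.628 and 11.3 TPM in H146. *SCGN* had r = -0.10 and *HPCA* r = -0.72 with *CALB2*.

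Genes near *CALB2* were read in the same fits. Since *CALB2* was chosen for one of the largest rises of all genes, its own change is no yardstick for them. Of 33 annotated genes starting within 500 kb, 15 had a row in the tables. In H146, 4 of the 11 tested were higher and 0 were lower, beside 32.5% of all genes called higher and 15.5% lower, and with the median of ratios 2 were higher and 0 lower. *CMTR2*, an mRNA cap methyltransferase gene starting 69.0 kb away, had the largest called change, 0.95 (SE 0.172, adjusted p = 0.00269), with means of 5.03 and 10.8 TPM. In H82, 0 of the 6 tested were higher and 5 were lower, beside 13.1% and 45.5% of all genes, and 2 were lower with the median of ratios. *ATXN1L*, a transcriptional regulator gene 449.7 kb away, fell most there, with a change of -1.495 (SE 0.208, adjusted p = 0.00108), from 26.9 to 9.10 TPM.

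**Figure D4:**
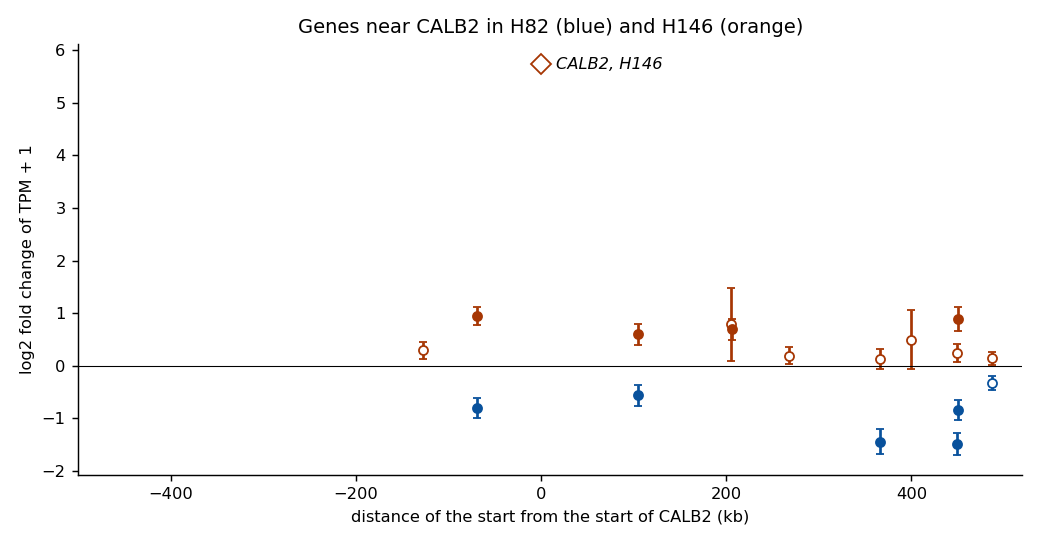
Log2 fold change of TPM + 1 (SE as bars) of the tested genes whose start lies within 500 kb of that of *CALB2*, against the distance in kb, in H82 (blue) and H146 (orange). Filled points passed adjusted p under 0.05. The diamond is *CALB2* in H146, whose position follows from how it was chosen and has no test. The filled H146 points lie between 0.60 and 0.95.

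Beyond the 9 genes, 86 other genes of calcium binding, transport and calcium-dependent signaling were counted in 6 lists by family. In H82, 11 of the 60 tested were higher and 24 lower, 58.3% called against 58.6% of all genes, with a median change of -0.42 against -0.56. With the median of ratios 18 were higher and 15 lower. Without treated H82 library 2, 29 were past the threshold in place of 35. In H146, 22 of the 56 tested were higher and 14 lower, 64.3% called against 47.9% of all genes, with a median of 0.16 against 0.25. With the median of ratios 15 were higher and 21 lower, so the balance of directions depended on the scaling in both lines. The counts by list below are to be read beside the shares of all genes called, 13.1% higher and 45.5% lower in H82 and 32.5% higher and 15.5% lower in H146. Genes near 0 in one group, such as *RCVRN*, *CABP5*, *SLC24A4*, *RYR2* and *TESC* in H82, reached the filter only through the other group.

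Of the 9 other neuronal calcium sensors, 5 were tested in H82, where 4 fell and 0 rose, with a median of -1.24. With the median of ratios 3 fell and 0 rose, and with quantile normalization 2 fell and 1 rose, with a median of -0.27. One of the 4, *KCNIP2*, was not past the threshold without treated library 2 (adjusted p = 0.0778). *RCVRN*, recoverin, the photoreceptor member of the family, fell most, from 9.81 ± 1.24 to 0.0449 ± 0.0437 TPM (SD, n = 3 each), by 3.37 on the log2 scale (SE 0.19, adjusted p = 0.0001). In H146 1 rose and 1 fell of 5. *KCNIP4*, a sensor that binds A-type potassium channels, was 4.24 and 1.26 TPM in untreated and treated H82 (log2 fold change -1.19, adjusted p = 0.00542, but -0.16, adjusted p = 0.612, after quantile normalization) and 1.99 and 4.54 TPM in H146 (0.89, adjusted p = 0.00247).

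Among calmodulins and the CaBP relatives, 1 of 6 rose and 1 fell in H82, and 3 of 5 rose and 0 fell in H146. After rescaling by the median of ratios 3 rose and 1 fell in H82, and 2 rose and 1 fell in H146. *CABP5*, a synaptic relative of calmodulin, fell in H82 from 9.49 to 0.235 TPM (log2 fold change -3.09, adjusted p = 0.000139). *CABP1*, which modulates calcium channels, rose there from 1.83 to 5.99 TPM (1.30, adjusted p = 0.002). Among the other EF-hand genes, 7 of 16 rose and 3 fell in H82, and 5 of 17 rose and 8 fell in H146. The median of ratios gave 10 risen and 1 fallen in H82, and 4 risen and 8 fallen in H146. Without treated H82 library 2, the rises of *CETN2* (adjusted p = 0.117) and *PPP3R1* (0.102) in H82 were not past the threshold. The falls of *NECAB2* (0.0543) and *CHP1* (0.0521) in H82 were not past it either. *TESC*, tescalcin, rose in H82 from 0.296 to 11.6 TPM (2.79, adjusted p = 0.00863), or by 1.99 (adjusted p = 0.00225) without treated library 2, and fell in H146 from 26.1 to 6.79 TPM (-1.81, adjusted p = 8.99e-05). *NECAB1*, a neuronal calcium binding protein, went the other way, from 10.3 to 3.71 TPM in H82 (-1.27, adjusted p = 0.00118, but -0.45, adjusted p = 0.0563, after quantile normalization) and from 6.15 to 22.5 TPM in H146 (1.71, adjusted p = 8.22e-05).

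Pumps and exchangers move calcium across membranes. Of these, 0 of 13 rose and 7 fell in H82, a share near the 45.5% of all genes called lower, and 4 of 12 rose and 2 fell in H146. With the median of ratios 0 rose and 5 fell in H82, and 3 rose and 4 fell in H146. With quantile normalization 1 rose and 6 fell in H82, and 3 rose and 3 fell in H146. *SLC24A4*, a potassium-dependent sodium/calcium exchanger, fell in H82 from 7.10 to 0.234 TPM (-2.71, adjusted p = 0.000128). *ATP2A3*, a calcium pump of the endoplasmic reticulum, fell in H146 from 559 ± 98.1 TPM (SD, n = 3) to 45.6 ± 2.27 TPM (SD, n = 4), by 3.58 on the log2 scale (adjusted p = 2.03e-06), the largest fall of the 86 genes in that line. *ATP2B1*, a pump of the plasma membrane, rose in H146 from 15.9 to 57.1 TPM (1.79, adjusted p = 4.21e-05).

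Of the genes of store release and entry, 2 of 10 rose and 6 fell in H82, and 4 of 6 rose and 0 fell in H146 (3 rose and 5 fell in H82, and 2 rose and 2 fell in H146, with the median of ratios). *RYR2*, a ryanodine receptor, fell in H82 from 9.77 to 0.340 TPM (-3.03, adjusted p = 0.000155), and *ORAI1*, the pore of store-operated entry, rose from 27.2 to 65.0 TPM (1.22, adjusted p = 0.000643). *ITPR2*, an inositol trisphosphate receptor, fell in H82 from 15.9 to 1.56 TPM (-2.72, adjusted p = 0.000123) and rose in H146 from 1.43 to 6.23 TPM (1.57, adjusted p = 0.000297). Of the calmodulin-dependent kinases and calcineurin genes, 1 of 10 rose and 3 fell in H82, and 5 of 11 rose and 3 fell in H146. With the median of ratios the counts were 2 and 0 in H82 and 3 and 4 in H146. *CAMK4*, a nuclear kinase of neurons and lymphocytes, rose in H146 from 8.16 to 21.9 TPM (1.32, adjusted p = 0.000388). In H82 *CAMK4* fell from 3.15 to 1.73 TPM (-0.61, adjusted p = 0.047), but not past the threshold with the median of ratios (-0.27, adjusted p = 0.343). *CAMK1D* fell in H146 from 72.8 to 29.1 TPM (-1.31, adjusted p = 0.000836).

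**Figure D5:**
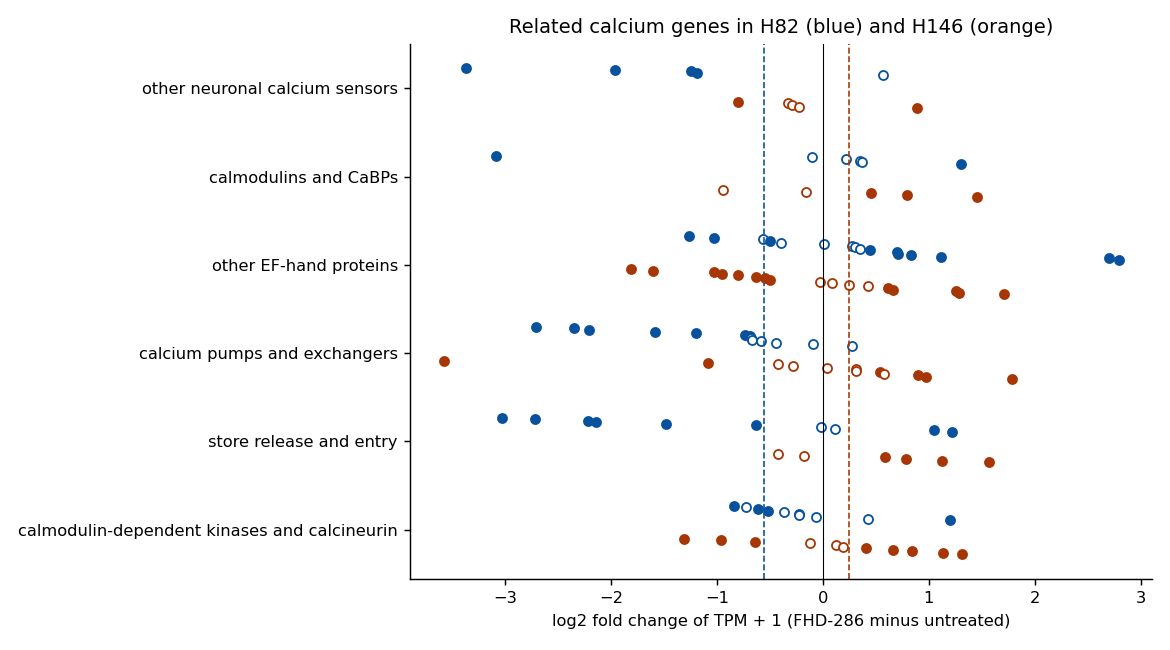
Log2 fold change of TPM + 1 of the tested genes in 6 lists of related calcium genes in H82 (blue) and H146 (orange), with the medians of all genes as dashed lines. Filled points passed adjusted p under 0.05. The pumps and exchangers in H82 have no filled point to the right of 0, and the leftmost H146 point is *ATP2A3* at -3.58.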

How the data were processed

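Total RNA was extracted and libraries were made by a service provider. The authors trimmed reads (Trim Galore 0.4.4), aligned them with STAR to hg38 with GENCODE 28 and deposited 1 table of TPM per line, in which each library sums to 1000000, and their own test (DESeq2) used counts that are not analysed here. From these TPM, limma 3.58.1 (R 4.3.3; eBayes with a trend, two-sided, Benjamini-Hochberg) was run on log2(TPM + 1) within each line and as an interaction of line and treatment. Genes had to reach 1 TPM in at least 3 libraries, and the threshold was 0.05. A count test does not suit TPM. All 9 members were named, and, of the related genes, mainly those with the largest called rise or fall per list. The members, lists and tests were chosen with earlier results of these data known. Genes under the filter got an exact permutation test over libraries (4 such tests with values above 0). Alternatives were a pseudocount of 0.1, no filter, the median of ratios, quantile normalization, a replicate block, no trend, each library left out (with the same genes tested) and, chosen after seeing the data, log2 ratios of mean TPM. The fits were also run on simulated data with independent noise and few changed genes. Such data hold no shift of the median, so they say nothing on the scaling of the libraries. Coordinates are from GENCODE 44.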

Additional observations from a re-analysis of the deposited data

Results flagged for a closer look

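The test of the difference between the responses of H146 and H82 (limma, log2 scale, H146 minus H82) put 5 genes past the threshold. *SCGN* differed by -8.744, rising in all 3 treated H82 libraries and falling in all 4 treated H146 libraries. *VSNL1* differed by 2.827 and *NCS1* by 1.739, both called higher in H146, and *VSNL1* was below the filter in H82. *HPCAL1* differed by -1.363, lower in all 4 treated H146 libraries. *HPCA* differed by 1.015, with the called fall in H82. After rescaling by the median of ratios, the differences of *HPCA* (0.245, adjusted p = 0.523) and *NCS1* (0.94, adjusted p = 0.0547) were not past the threshold. The adjusted p-values stand beside each gene above. In treated H146, the only group of 4 libraries, no value of the 9 genes lay far enough from the others to be singled out by a gap test.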

How the results depend on the processing

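The counts of genes called among the 9 and among the 86 related genes stayed within 1.5 times of their values under every alternative run, but the genes called changed. The median of ratios and quantile normalization each called *HPCA* and *NCALD* lower in H146, which made 7 genes in place of 5. With the median of ratios *HPCA* and *NCS1* no longer passed the test of the difference between the lines. With the replicate block the same genes were called (2 in H82, 5 in H146, 5 between the lines), and *SCGN* in H146 was -5.20, a value that leaves out treated library 4, which has no untreated partner. Same-numbered libraries did not deviate together (correlations of 0.03, 0.01 and -0.04 in H82 and -0.11, -0.06 and 0.01 in H146), so the numbers were not taken as pairs. Scaling turned several directions in H82: the median of ratios took *CALB1* to 0.073, *HPCAL1* to 0.292 and *NCS1* to 0.377, and quantile normalization took *CALB1* to 0.585 and *HPCAL1* to 0.555. Quantile normalization also turned the difference between the lines for *CALB1* to -0.055. Leaving out 1 library moved *CALB1* in H82 between -1.431 and 0.46 (the last without treated library 3), *NCS1* in H82 between -0.312 and 0.259, and *NCALD* in H82 between -0.004 (without treated library 2) and 0.768. *NCALD* passed the test of the difference between the lines under both rescalings (-1.32 and -1.54) and without treated H82 library 3 (-1.16). Beyond the scaling and the left-out libraries, the cause was not tested. TPM gives no read depth, so low values carry an unknown counting error.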
